A study of Arabidopsis thaliana with 12 samples.

Results

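The 39 genes described here are nuclear genes of Arabidopsis thaliana that encode chlorophyll-binding antenna proteins and nuclear-encoded core subunits of the photosystems. They were taken from the count table by gene identifier, out of 32678 genes listed. They comprise 14 LHCB genes (of the photosystem II antenna), 5 LHCA genes (of the photosystem I antenna), 12 photosystem I subunit genes (PSA) and 8 photosystem II subunit genes (PSB). LHCA4, LHCB7, PSBO2, PSBP2 and PSBTN are not members, so the class sums leave them out. All 39 passed the filter on low counts that 18770 genes passed.

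Poly(A) RNA was sequenced from leaves of 4-week-old plants, 4 hours after they were syringe-infiltrated with Pst AvrRps4 at an OD600 of 0.005. Pst AvrRps4 is a Pseudomonas syringae leaf pathogen that brings the effector AvrRps4 into plant cells. The 4 genotypes, each with 3 libraries, were Col-0 (the wild-type accession), eds1-2 (a mutant of the immune regulator EDS1), w.tEDS1 (labelled as a line with wild-type EDS1) and R493A (a line with the EDS1-R493A variant). Each library came from RNA of 4 pooled plants. All plants were infected and had been grown under 10 hours of light at 22 °C, so every difference below is between infected genotypes. The promoter, the recipient background and the number of transformants behind w.tEDS1 and R493A are not given in the sources used here.

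Antenna proteins hold most of a leaf's chlorophyll and pass excitation energy to the reaction centres, where photosystem II splits water and photosystem I reduces ferredoxin. Their nuclear genes are switched on by light and by signals from the plastid, many follow the circadian clock, and lower transcript levels of photosynthesis genes are a known part of leaf immune responses. EDS1 acts with partners such as PAD4 in immunity triggered by receptors of the TIR type, including the recognition of AvrRps4.

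Gene counts per library ran from 19273912 to 24572145. The lowest count of any member in any library was 734, for which counting error alone is 3.69% of the value, and the highest was 335650. Levels are given as CPM, a gene's count as a rate of the library total after edgeR's TMM scaling. EDS1 itself read 32.5, 72.0 and 23.2 CPM in Col-0, 3.81, 4.09 and 3.93 in eds1-2, 124, 196 and 111 in w.tEDS1 and 31.1, 23.5 and 19.4 in R493A. The EDS1 level was thus lowest in the eds1-2 libraries, and the R493A libraries overlapped those of Col-0 and lay below those of w.tEDS1. Against Col-0, EDS1 was higher in w.tEDS1 by 1.76 on the log2 scale (SE 0.368, adjusted p = 0.0498, edgeR), a call that held in 9 of 24 alternative settings. The Col-0 libraries stood apart from each other: PAD4, a partner of EDS1, read 48.6, 302 and 27.2 CPM in them, and ICS1, an enzyme of salicylic acid synthesis, read 42.1, 279 and 17.7. Replicate 2 of Col-0 was thus the highest of all 12 libraries for PAD4 and ICS1. For EDS1 it was the highest within Col-0, though below every w.tEDS1 library. Replicate 1, as shown next, was the one with the lowest photosystem transcripts. Leaf mesophyll markers (CA1, SBPASE, GAPB, GAPA1 and RBCS1A) were abundant in all 12 libraries, with sums of 12243 CPM at the lowest and 20508 at the highest. The 4 markers of root, flower and seed summed to 14.3 CPM at most, and COBL9 had 1 count in all libraries together. Sequencing lanes were unevenly spread: Col-0 replicates 1 and 2 shared a lane with no other library.

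The 39 transcripts together made up a large share of the poly(A) gene counts, and the group mean of that share was lowest in Col-0. They summed to 5.65%, 8.31% and 8.15% of the scaled counts in Col-0 replicates 1 to 3. In w.tEDS1 they summed to 9.23%, 9.36% and 9.90%, in eds1-2 to 9.60%, 8.10% and 9.81%, and in R493A to 8.10%, 8.75% and 8.02%. As group means these were 73715 ± 14923 CPM in Col-0, 91683 ± 9349.8 in eds1-2, 94989 ± 3542 in w.tEDS1 and 82875 ± 4032 in R493A (SD, n = 3 each). The w.tEDS1 libraries lay above the Col-0 and the R493A libraries without overlap, whereas the eds1-2 libraries overlapped both. The same held for unscaled counts, of which the members made up 5.68%, 7.25% and 8.30% in Col-0 replicates 1 to 3. Scaling thus turned the order of Col-0 replicates 2 and 3. In bulk leaf RNA, fewer cells of a type and less RNA per cell cannot be told apart.

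**Figure D1:**
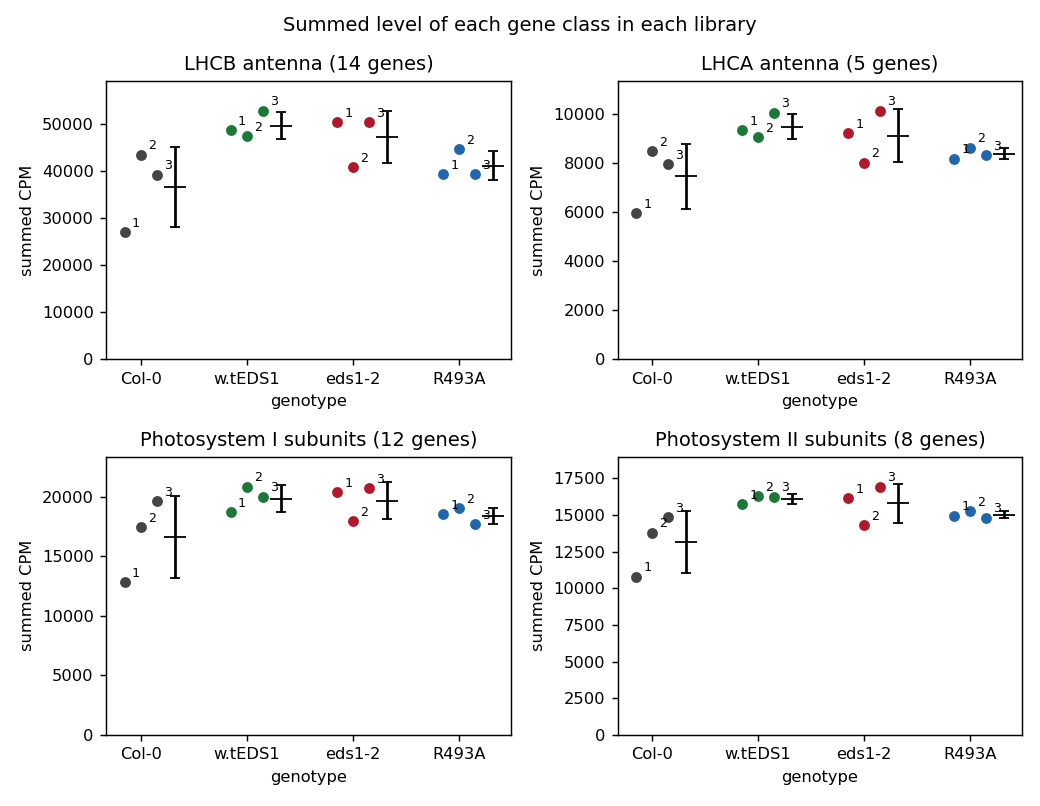
Summed CPM (y axis) of the LHCB, LHCA, photosystem I and photosystem II genes by genotype (x axis), with 1 point per library numbered by replicate and the mean with its SD (n = 3) as a dash with bars. Col-0 replicate 1 is the lowest point in each of the 4 panels, and the w.tEDS1 means are the highest in each panel.

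One library was low for antenna and core genes alike. Col-0 replicate 1 held the lowest value of 37 of the 39 members among all 12 libraries. The remaining members, LHCB4.3 and LHCA5, were lowest in Col-0 replicate 2. The spread within Col-0 was wide, with a median SD of 0.30 in log2 CPM over the members, close to the 0.31 over all tested genes. In the other groups the members varied less than the typical gene, with a median SD of 0.11 against 0.19 in w.tEDS1, 0.17 against 0.22 in eds1-2 and 0.08 against 0.18 in R493A. The tested genes were not matched to the members in level, so a part of level in this difference was not tested.

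**Figure D2:**
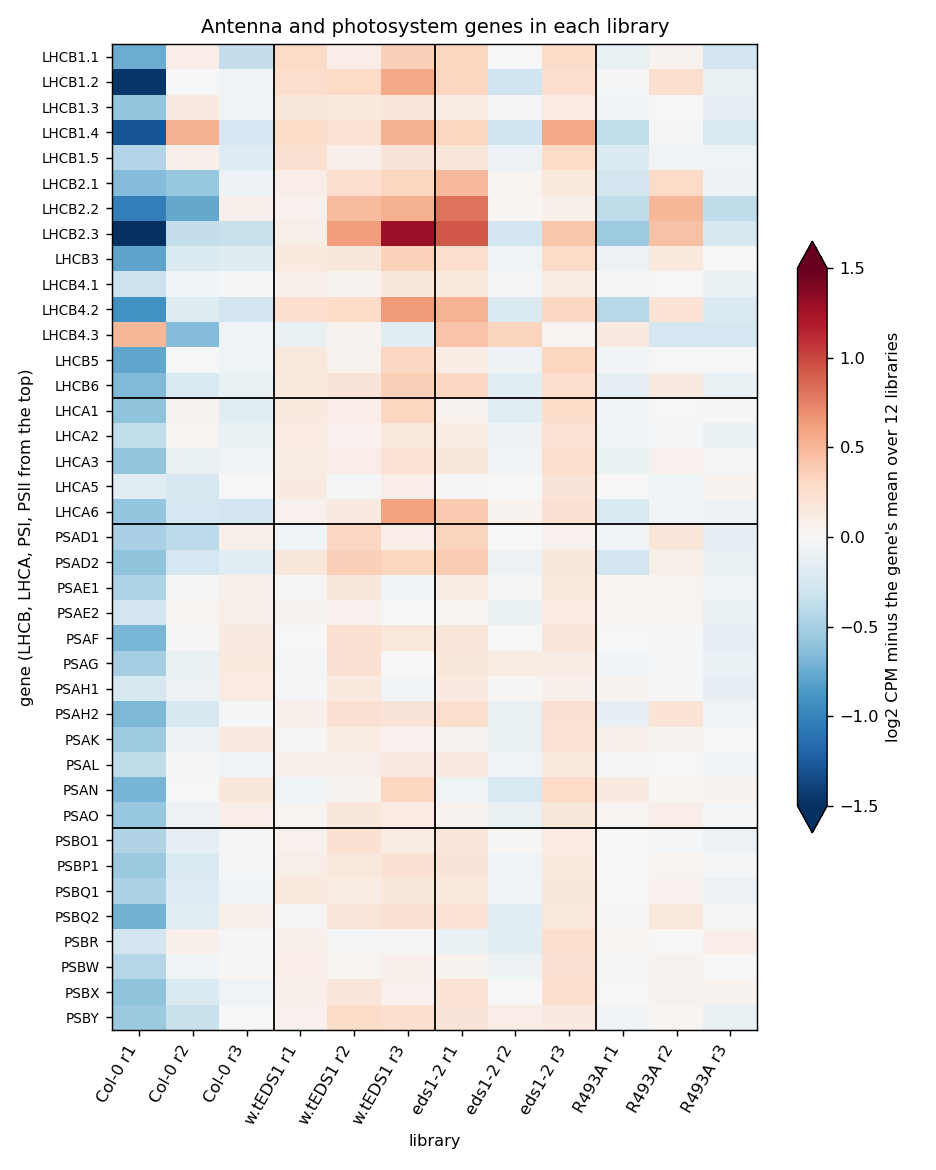
Log2 CPM of the 39 members (rows, by class) in each of the 12 libraries (columns), minus each gene's mean over the 12 libraries, where red is above and blue below that mean. Col-0 replicate 1 is below the mean for every row except LHCB4.3, and LHCB2.3 has the widest range of colours.

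Levels between genes can be compared only per length, so CPM was divided by the exon length in kilobases. LHCB1.3 (AT1G29930) was the most abundant member in every library, at a mean of 10035 CPM per kb over the 12 libraries. LHCB1.5 (AT2G34420) followed at 6580.3 and PSBR (AT1G79040) at 4088, and these held the second and the third place in all 12 libraries. Group levels of LHCB1.3 were 9039 ± 2187 in Col-0, 10429.7 ± 571 in eds1-2, 11164 ± 165 in w.tEDS1 and 9506 ± 518 in R493A CPM per kb (SD, n = 3). Below these came LHCB1.1 at 3097, LHCB3 at 2907 and LHCB5 at 2832, which changed places with PSAF and PSAO, among others, between libraries. At the other end stood LHCA6 at 40.6, LHCB4.3 at 57.2, LHCA5 at 103 and LHCB2.3 at 201 CPM per kb, which filled the last 4 places in each library in an order that varied. Among the more abundant photosystem I subunits were PSAO (AT1G08380) at 2756 and PSAK (AT1G30380) at 2481 CPM per kb, both at the side of the complex where antenna docks.

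Some members are near-identical copies, so a part of their reads may be missing from the gene counts. Reads without a unique place were entered apart from the genes, at 7.28% to 19.6% of each library's column. The coding sequences of LHCB1.1, LHCB1.2 and LHCB1.3 were identical at 95.6% to 96.4% of positions. These 3 genes neighbour each other on chromosome 1, with gaps of 1153 and 1915 bases, and LHCB1.4 and LHCB1.5 neighbour on chromosome 2 with a gap of 1038 bases. Of the 50-base words in their exons, the LHCB1 genes shared 10.6% to 20.5% with another place in the genome, LHCB2.1 shared 23.5%, LHCB2.2 shared 29.5% and LHCA2 shared 11.4%. The other 31 members shared none at this length. Read length is not given in the sources used here, and levels of the 8 genes are uncertain to that extent. No member lies within 2 Mb of EDS1, and the nearest, LHCA1 on chromosome 3, is 2.58 Mb away. Of related genes that are not members, LHCA4 lies 0.260 Mb and PSBO2 1.13 Mb from EDS1.

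The first comparison the design poses is the loss of EDS1, eds1-2 against Col-0. All 39 members were higher in the eds1-2 mean, with a median log2 fold change of 0.31, and none passed an adjusted p of 0.05 in edgeR's quasi-likelihood test with Benjamini-Hochberg adjustment over 18770 genes. In that comparison 2.04% of all tested genes were called, and the median over all tested genes was -0.01. At an unadjusted p under 0.05 there were 15 members, against 22.9% of all genes. The eds1-2 and Col-0 libraries did not overlap for 11 members, all higher in eds1-2, beside 10.2% of all genes in that direction. Without Col-0 replicate 1 they were 12, beside 13%. Leaving out a Col-0 library can only keep or lower the highest Col-0 value, so this count could not fall. By class the median log2 fold change was 0.47 for LHCB, 0.27 for LHCA, 0.21 for photosystem I and 0.31 for photosystem II. Without Col-0 replicate 1 the median over the members was 0.20, and with sequencing lane in the model it was 0.07. Since Col-0 replicates 1 and 2 were alone in their lane, comparisons with Col-0 in the lane model rest on Col-0 replicate 3 alone. The lane model left 4 residual degrees of freedom. Between the single eds1-2 and Col-0 libraries of lane 7 the median was -0.02. Without Col-0 replicate 3, 7 members passed, beside 17.6% of all genes, and DESeq2 called 6, beside 10% of all genes.

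In the same direction, w.tEDS1 was above Col-0 for 38 of the 39 members, with a median log2 fold change of 0.37 against -0.01 over all tested genes. None passed the adjusted threshold, which 1.09% of all genes passed, and 18 had an unadjusted p under 0.05, beside 22.7% of all genes. Groups did not overlap for 22 members, all higher in w.tEDS1, against 12.1% of all genes in that direction. These were 9 of 14 LHCB, 4 of 5 LHCA, 3 of 12 photosystem I and 6 of 8 photosystem II genes. Without Col-0 replicate 1 the count was again 22, beside 15.3% of all genes, and the median was 0.23. That count could hardly change, because Col-0 replicate 1 was the lowest library for 37 of the 39 members. Within lane 7, where 3 w.tEDS1 libraries stood against 1 of Col-0, the median was 0.18. Without Col-0 replicate 3, 11 members passed, beside 14.2% of all genes, DESeq2 called 9, beside 9.51%, and with sequencing run in the model PSAD2 passed, beside 3.04%.

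The third line, R493A, had a mean above that of Col-0 for 37 members, with a median of 0.20 against 0.01 over all tested genes, none passed the adjusted threshold that 1.77% of genes passed, and none had an unadjusted p under 0.05, beside 19.5% of all genes. The groups did not overlap for 4 members (LHCB3, LHCA6, PSBP1 and PSBX), against 8.96% of all genes. Without Col-0 replicate 3 they were 20, against 24.2%, a count that leaving out a Col-0 library could not lower. The median was 0.05 without Col-0 replicate 1, -0.10 with lane in the model and -0.05 within lane 7.

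The R493A line is compared next with w.tEDS1, the line with wild-type EDS1. These lines also differed in the level of EDS1, at a mean of 24.7 CPM in R493A and 143.6 in w.tEDS1. The variant, the EDS1 level and the line can therefore not be told apart. R493A lay below w.tEDS1 for 38 of the 39 members, PSBR being the other, and the median log2 difference was -0.16 against 0.01 over all tested genes. No member passed the adjusted threshold in edgeR, which 0.224% of all genes passed, and 2 members, LHCA6 and PSAD2, had an unadjusted p under 0.05, beside 4.6% of all genes. The 3 R493A libraries all lay below the 3 w.tEDS1 libraries for 20 members, beside 7.68% of all genes in that direction. They included all 5 LHCB1 genes, LHCA1, LHCA2, LHCA3 and LHCA6, and 5 of the 8 photosystem II genes, but only PSAD2 and PSAL of the 12 photosystem I genes. The R493A and w.tEDS1 libraries of lane 7 gave a median of -0.17, and leaving out any 1 library gave -0.20 to -0.13.

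Between w.tEDS1 and eds1-2 the median log2 difference of the members was 0.03, and it was 0.13 with lane in the model and 0.20 within lane 7. No member passed the threshold, while 0.0746% of all genes did, none had an unadjusted p under 0.05, beside 2.66%, and LHCB1.3 was the only member whose groups did not overlap, beside 5.09% of genes higher in w.tEDS1. R493A was below eds1-2 for 37 members, with a median of -0.13, which was -0.00486 within lane 7. Again no member passed, while 0.0373% of genes did, 1 (LHCA6) had an unadjusted p under 0.05, beside 2.15%, and 4 members did not overlap (LHCA6, PSAG, PSBO1 and PSBY), beside 3.89% of genes in that direction.

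**Figure D3:**
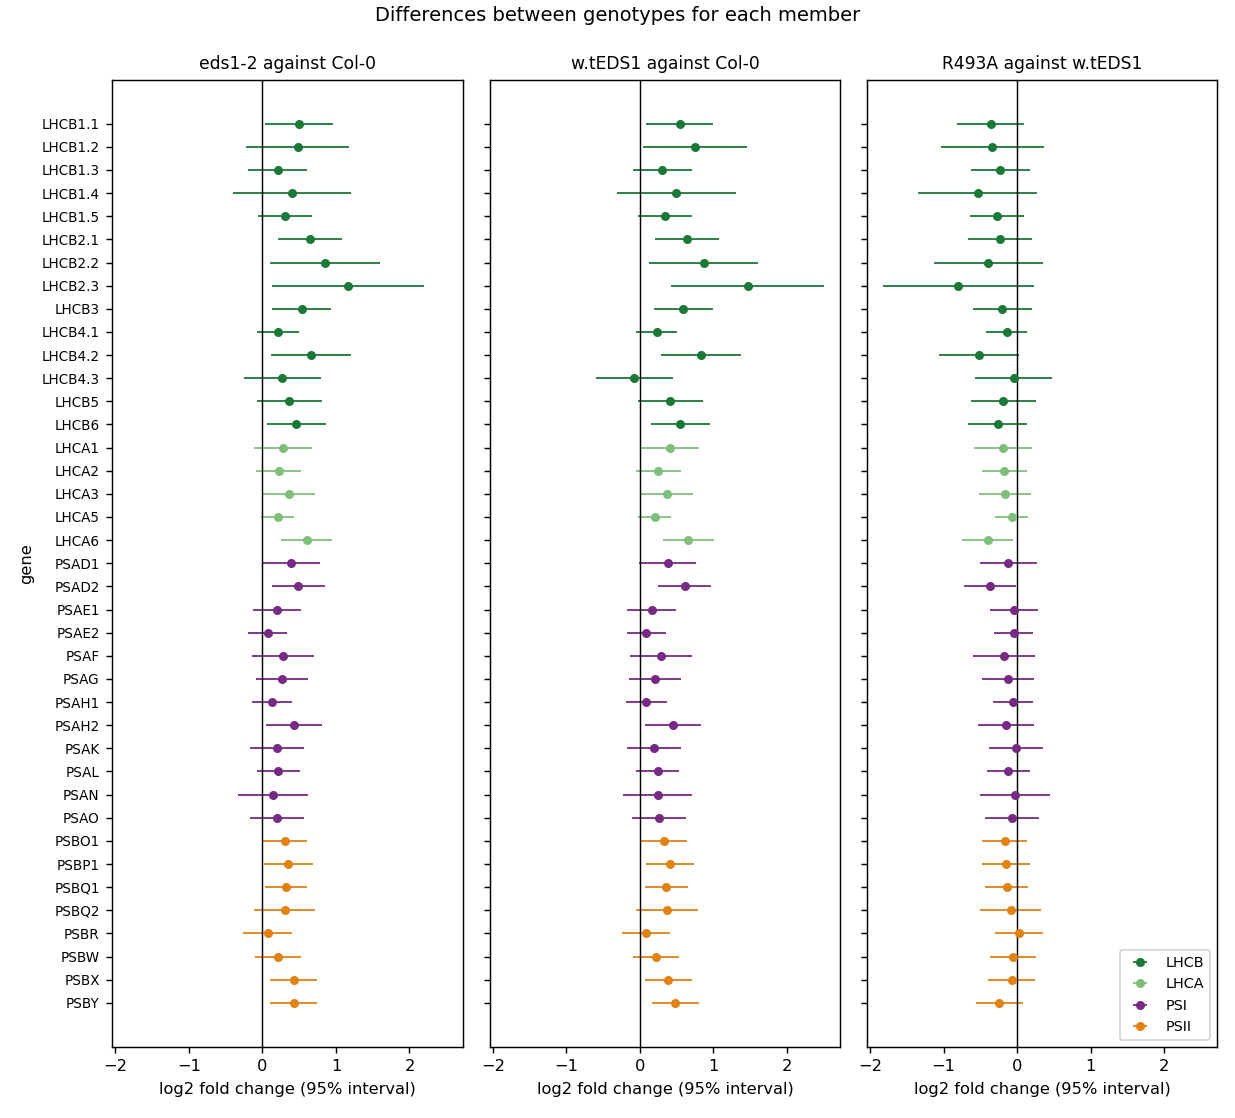
Log2 fold change (x axis) of each of the 39 members (y axis, coloured by class) in 3 comparisons, with 95% intervals from edgeR's quasi-likelihood fit. Points lie to the right of 0 in nearly all rows for eds1-2 and w.tEDS1 against Col-0, and to the left in nearly all rows for R493A against w.tEDS1, and no member passes the adjusted threshold in any panel.

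The 2 EDS1 comparisons use separate libraries, so their difference was tested in the same model: R493A minus w.tEDS1, less eds1-2 minus Col-0. Both an eds1-2 range above Col-0 and an R493A range below w.tEDS1 were found for 7 members, beside 1.08% of all genes. The difference was below 0 for all 39 members, with a median of -0.47 against 0.03 over all tested genes. Its parts had medians of -0.16 for R493A against w.tEDS1 and 0.31 for eds1-2 against Col-0. The w.tEDS1 and R493A lines also lay above Col-0, at medians of 0.37 and 0.20. A shift between Col-0 and all 3 lines therefore enters this difference. None passed the adjusted threshold, which 0.16% of genes passed, and 17 members had an unadjusted p under 0.05, beside 15.2% of all genes. The lowest adjusted p was that of LHCA6, at -1.005 (SE 0.223, adjusted p = 0.1248, edgeR). The median was -0.28 with lane in the model and -0.17 within lane 7. DESeq2 called 3 members here (LHCA6, PSAD2 and PSBY), beside 2.87% of all genes, and leaving out Col-0 replicate 3 left PSBY called, beside 2.32%.

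The major antenna of photosystem II is a trimer of LHCB1, LHCB2 and LHCB3 proteins, and LHCB2 carries the phosphorylation that moves part of the antenna to photosystem I. LHCB2.3 (AT3G27690) had the widest range of all members. LHCB2.3 measured 63.1, 200.4 and 203 CPM in the Col-0 libraries, 490.0, 212 and 343 in eds1-2, 272, 394 and 622 in w.tEDS1 and 176, 347 and 216 in R493A. Both w.tEDS1 and eds1-2 lay above Col-0 in every library, while R493A overlapped all 3 other groups. Its log2 fold change was 1.16 (SE 0.471) in eds1-2 against Col-0, with an adjusted p of 0.173 in edgeR, and 1.47 (SE 0.474) in w.tEDS1 against Col-0, with 0.116. R493A against w.tEDS1 gave -0.80 (SE 0.467). LHCB2.1 stood at 1038, 1102 and 1531 CPM in the Col-0 libraries, 2272, 1678 and 1814 in eds1-2, 1744, 1938 and 2042 in w.tEDS1 and 1345, 1979 and 1547 in R493A. LHCB2.1 (AT2G05100) was above the Col-0 range in every w.tEDS1 and eds1-2 library, with a log2 fold change of 0.65 (SE 0.198) in eds1-2 and an edgeR adjusted p of 0.0971. LHCB3 amounted to 2051, 3057 and 3123 CPM in the Col-0 libraries, 4235, 3377 and 4322 in eds1-2, 3909, 3999 and 4494 in w.tEDS1 and 3320.2, 3929.7 and 3516 in R493A. For LHCB3 (AT5G54270), a partner in the trimer, every library of the other 3 genotypes lay above every Col-0 library. LHCB1.3 reached 8173, 13444 and 11737 CPM in the Col-0 libraries, 13175, 12019.7 and 13291 in eds1-2, 13792, 13506 and 13898 in w.tEDS1 and 11789.5, 12276 and 11013 in R493A. This most abundant transcript was lowest in Col-0 replicate 1, and the other Col-0 libraries lay within the range of the 3 lines. Its log2 fold change in eds1-2 against Col-0 was 0.21 (SE 0.184).

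**Figure D4:**
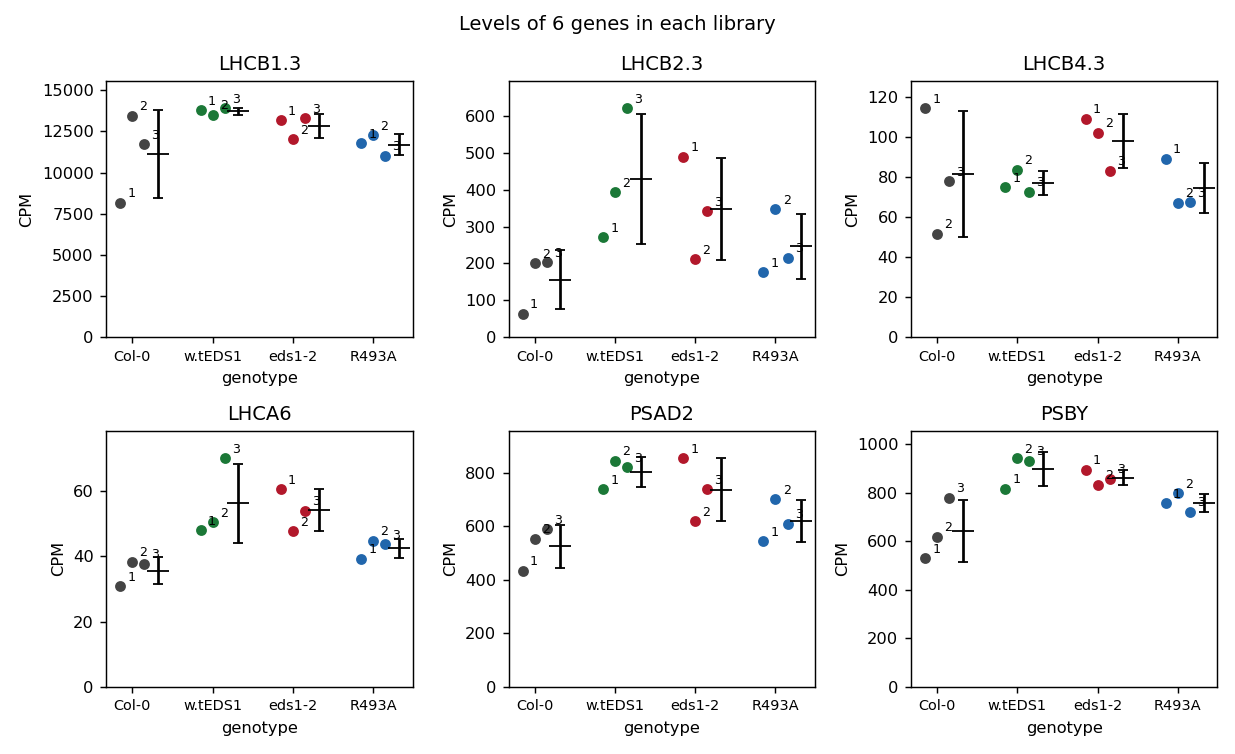
CPM (y axis) of LHCB1.3, LHCB2.3, LHCB4.3, LHCA6, PSAD2 and PSBY by genotype (x axis), with 1 point per library numbered by replicate and the mean with its SD (n = 3). LHCA6 and PSBY are higher in every w.tEDS1 and eds1-2 library than in any Col-0 library, and LHCB4.3 has its highest and its lowest point in Col-0.

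The minor antenna CP29, which joins the trimers to the photosystem II core, is encoded by LHCB4.1, LHCB4.2 and LHCB4.3, and these genes differed in how they varied. LHCB4.2 measured 463, 765 and 716 CPM in the Col-0 libraries, 1242, 744 and 1076 in eds1-2, 1030.5, 1060.0 and 1354 in w.tEDS1 and 653, 1001 and 746 in R493A. It was above Col-0 in every w.tEDS1 library, and R493A lay wholly below w.tEDS1. For LHCB4.2 (AT3G08940) the log2 fold change was 0.83 (SE 0.248, adjusted p = 0.101, edgeR) in w.tEDS1 against Col-0 and -0.52 (SE 0.247) in R493A against w.tEDS1. LHCB4.3 gave 114, 51.7 and 78.2 CPM in the Col-0 libraries, 109, 102 and 83.4 in eds1-2, 74.9, 83.8 and 72.7 in w.tEDS1 and 89.2, 67.3 and 67.4 in R493A. The highest library of LHCB4.3 (AT2G40100) was Col-0 replicate 1, the library in which the other LHCB genes were lowest, and its lowest was Col-0 replicate 2. Its log2 fold change against Col-0 was 0.27 (SE 0.239) in eds1-2 and -0.08 (SE 0.239) in w.tEDS1, and without Col-0 replicate 1 the latter was 0.26.

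The share that each copy holds of its family is given as a description, with no test. A share is said to differ by more than the SDs where it does so by more than those of both groups added together. LHCB4.2 made up 19.98% ± 2.78 in Col-0, 25.3% ± 3.80 in eds1-2, 27.7% ± 2.27 in w.tEDS1 and 22.7% ± 3.73 in R493A of the LHCB4 level per kb (SD, n = 3), so that its share in w.tEDS1 lay above Col-0 by more than the SDs. LHCB2.3 made up 6.78% ± 3.10 in Col-0, 8.92% ± 1.89 in eds1-2, 10.7% ± 3.03 in w.tEDS1 and 7.91% ± 0.727 in R493A of LHCB2. LHCB1.3 made up 45.9% ± 1.28 in Col-0, 42.9% ± 2.58 in eds1-2, 43.1% ± 1.38 in w.tEDS1 and 44.8% ± 1.37 in R493A of LHCB1. The LHCB1.3 share in w.tEDS1 lay below Col-0 by more than the SDs. LHCB1.1, LHCB1.4 and LHCB4.1, whose shares are not given here, also differed by more than the SDs between some genotypes. PSAH1, a subunit at the docking site for mobile antenna, made up 40.7% ± 2.63 in Col-0, 35.7% ± 2.41 in eds1-2, 34.4% ± 1.35 in w.tEDS1 and 36.0% ± 3.25 in R493A of the PSAH level per kb, and its share in w.tEDS1 lay below Col-0 by more than the SDs. PSAD2 made up 36.4% ± 3.12 in Col-0, 37.8% ± 1.70 in eds1-2, 40.1% ± 1.62 in w.tEDS1 and 35.9% ± 1.94 in R493A of PSAD. Its share in w.tEDS1 lay above R493A by more than the SDs. PSAE2 made up 25.4% ± 1.14 in Col-0, 23.6% ± 0.250 in eds1-2, 24.3% ± 1.04 in w.tEDS1 and 24.2% ± 0.280 in R493A of PSAE. The PSAE2 share in eds1-2 lay below Col-0 and below R493A by more than the SDs. PSBQ1 made up 47.0% ± 3.30 in Col-0, 47.0% ± 1.37 in eds1-2, 46.5% ± 1.97 in w.tEDS1 and 45.6% ± 0.737 in R493A of PSBQ.

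**Figure D5:**
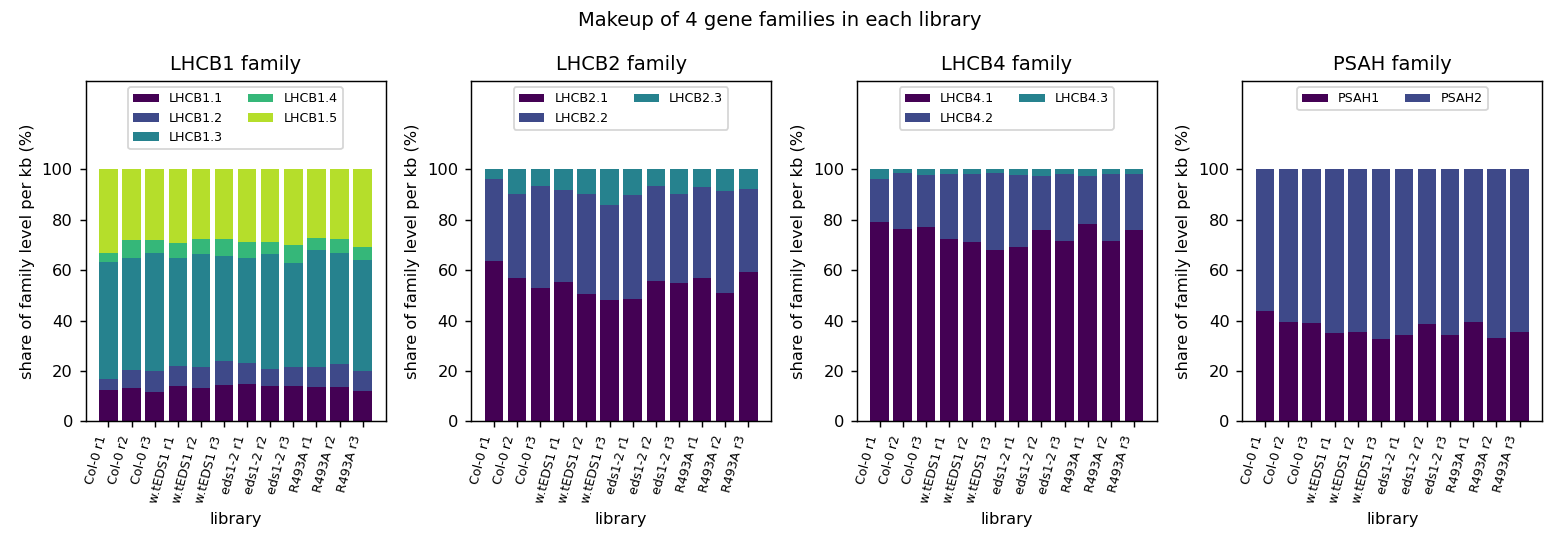
Share (y axis, percent of the family's summed level per kb) of each copy in the LHCB1, LHCB2, LHCB4 and PSAH families in each of the 12 libraries (x axis). LHCB1.3 and LHCB1.5 hold most of the LHCB1 level in every library, and the LHCB2.3 and LHCB4.2 shares are lowest in Col-0 replicate 1.

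The windows of 250 bases before the annotated start of LHCB2.3 and of the 3 LHCB4 genes are shown because these are the genes with the widest range and with unlike patterns in one family. They are from RefSeq's TAIR10.1, 5′ to 3′ on the gene's strand, at chr3:10255656-10255905, plus strand (LHCB2.3), chr5:208616-208865, plus strand (LHCB4.1), chr3:2717307-2717556, plus strand (LHCB4.2) and chr2:16745378-16745627, plus strand (LHCB4.3). Capitals mark matches, on either strand, to the G-box CACGTG, to the I-box GATAAG, to CCAATC or to the evening element AAAATATCT, none of which contains another.
LHCB2.3: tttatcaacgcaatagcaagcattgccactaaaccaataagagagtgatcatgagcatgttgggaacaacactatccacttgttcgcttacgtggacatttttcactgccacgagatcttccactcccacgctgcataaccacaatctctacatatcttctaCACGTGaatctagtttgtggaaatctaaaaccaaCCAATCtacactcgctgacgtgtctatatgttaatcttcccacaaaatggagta
LHCB4.1: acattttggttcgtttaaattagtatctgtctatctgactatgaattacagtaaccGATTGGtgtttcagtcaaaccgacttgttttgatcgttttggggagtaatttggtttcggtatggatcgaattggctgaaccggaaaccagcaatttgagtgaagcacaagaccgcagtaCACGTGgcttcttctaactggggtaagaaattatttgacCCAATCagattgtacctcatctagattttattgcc
LHCB4.2: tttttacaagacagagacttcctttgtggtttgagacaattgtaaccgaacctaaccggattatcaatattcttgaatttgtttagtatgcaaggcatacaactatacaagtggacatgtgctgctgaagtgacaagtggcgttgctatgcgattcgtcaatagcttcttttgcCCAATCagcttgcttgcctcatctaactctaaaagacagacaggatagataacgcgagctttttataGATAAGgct
LHCB4.3: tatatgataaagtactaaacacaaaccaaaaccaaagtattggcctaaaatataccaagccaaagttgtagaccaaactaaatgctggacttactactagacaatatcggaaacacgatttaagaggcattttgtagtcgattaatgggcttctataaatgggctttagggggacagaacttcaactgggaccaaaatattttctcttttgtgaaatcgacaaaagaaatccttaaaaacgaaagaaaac
LHCB2.3 holds a G-box 88 bases and CCAATC 54 bases before the start. LHCB4.1 holds a G-box and CCAATC at 2 places, at one of them on the other strand, where it reads GATTGG, LHCB4.2 holds CCAATC and an I-box, and the LHCB4.3 window holds no match. Over all 39 members, CCAATC occurred in 10 windows (25.6%, against 10.2% of 27443 protein-coding genes), and 7 of these belonged to LHCB genes. The G-box occurred in 7 (17.9% against 6.49%), the I-box in 9 (23.1% against 12.3%) and the evening element, in LHCA5, in 1 (2.56% against 2.36%). These matches are letters in a window and not measured binding.

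The antenna of photosystem I is a belt of LHCA1 to LHCA4 proteins, while LHCA5 and LHCA6 are scarce and link photosystem I to the NDH complex of cyclic electron flow. LHCA4 is not a member, and its group means were 4147 CPM in Col-0, 4603 in eds1-2, 4967 in w.tEDS1 and 4250 in R493A. LHCA6 (AT1G19150) came closest to the threshold of all members. LHCA6 measured 30.8, 38.4 and 37.8 CPM in the Col-0 libraries, 60.6, 47.7 and 54.1 in eds1-2, 48.1, 50.6 and 70.2 in w.tEDS1 and 39.3, 44.8 and 43.7 in R493A. The Col-0 libraries were lowest, and R493A lay above Col-0 and below both w.tEDS1 and eds1-2 without overlap. Its log2 fold change was 0.60 (SE 0.158, adjusted p = 0.0694) in eds1-2 and 0.66 (SE 0.158, adjusted p = 0.0671) in w.tEDS1 against Col-0, and -0.40 (SE 0.158, adjusted p = 0.946) in R493A against w.tEDS1, all from edgeR. LHCA5 showed 98.4, 92.9 and 109.8 CPM in the Col-0 libraries, 111, 111 and 125 in eds1-2, 120.4, 108 and 118 in w.tEDS1 and 110.1, 105 and 114 in R493A. LHCA5 (AT1G45474), a steady gene, had an eds1-2 range just above that of Col-0 and a log2 fold change of 0.21 (SE 0.103). LHCA1 registered 1863, 2959 and 2541 CPM in the Col-0 libraries, 2939.8, 2537 and 3429 in eds1-2, 3142, 3053 and 3549.9 in w.tEDS1 and 2766, 2856 and 2873 in R493A. For LHCA1 (AT3G54890) w.tEDS1 lay above Col-0 and R493A below w.tEDS1, whereas eds1-2 overlapped Col-0, with a log2 fold change of 0.27 (SE 0.180) in eds1-2.

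In photosystem I, PSAD and PSAE form the stromal side where ferredoxin docks, PSAF and PSAN serve plastocyanin, and PSAG, PSAH, PSAK, PSAL and PSAO lie where antenna attaches. PSAD2 (AT1G03130) had the largest difference of the 12 in eds1-2 and w.tEDS1 against Col-0 and in R493A against w.tEDS1. PSAD2 measured 434, 553 and 588 CPM in the Col-0 libraries, 854, 617 and 739 in eds1-2, 738, 844 and 820.4 in w.tEDS1 and 544, 701 and 609.6 in R493A. Both w.tEDS1 and eds1-2 exceeded Col-0 in every library, and R493A was wholly below w.tEDS1. The log2 fold change was 0.49 (SE 0.163, adjusted p = 0.118) in eds1-2 and 0.61 (SE 0.164, adjusted p = 0.0839) in w.tEDS1 against Col-0, and -0.37 (SE 0.163) in R493A against w.tEDS1, by edgeR. PSAE2 had 305, 383 and 395 CPM in the Col-0 libraries, 385, 347 and 405 in eds1-2, 386, 390.3 and 374 in w.tEDS1 and 379.8, 383 and 349 in R493A. All genotypes overlapped for PSAE2 (AT2G20260), whose log2 fold change in eds1-2, 0.07 (SE 0.122), was the smallest of the class. PSAO counted 1512, 2104 and 2407 CPM in the Col-0 libraries, 2330.3, 2069 and 2522 in eds1-2, 2294, 2511 and 2432 in w.tEDS1 and 2298, 2394 and 2208 in R493A. PSAK was at 1298, 1802 and 2086 CPM in the Col-0 libraries, 1967, 1767 and 2194 in eds1-2, 1910.1, 2044 and 1982 in w.tEDS1 and 1991, 1964 and 1889 in R493A. For both genes the 3 lines overlapped one another and Col-0 replicates 2 and 3, and the R493A difference from w.tEDS1 was -0.07 (SE 0.168) for PSAO and -0.02 (SE 0.168) for PSAK.

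In photosystem II, PSBO, PSBP and PSBQ shield the water-splitting cluster, and PSBR, PSBW, PSBX and PSBY are small subunits. PSBY measured 529, 619 and 780.0 CPM in the Col-0 libraries, 896, 834 and 859 in eds1-2, 818, 943 and 932 in w.tEDS1 and 757, 798 and 721 in R493A. PSBX held 789, 1026 and 1152 CPM in the Col-0 libraries, 1383, 1195 and 1409 in eds1-2, 1265, 1360.3 and 1249 in w.tEDS1 and 1201, 1239 and 1236 in R493A. Each w.tEDS1 and eds1-2 library was above each Col-0 library for PSBY (AT1G67740) and PSBX (AT2G06520), and R493A was below w.tEDS1. In eds1-2 against Col-0 the log2 fold change was 0.42 (SE 0.145, adjusted p = 0.124) for PSBY and 0.43 (SE 0.146, adjusted p = 0.1251) for PSBX, by edgeR. PSBR totalled 2645, 3372 and 3164 CPM in the Col-0 libraries, 2968, 2871 and 3801 in eds1-2, 3368, 3147 and 3223 in w.tEDS1 and 3275, 3195 and 3434 in R493A. PSBR, which helps PSBP bind, was among the flattest members, with a log2 fold change of 0.07 (SE 0.150) in eds1-2 and 0.02 (SE 0.150) in R493A against w.tEDS1. PSBO1, the main extrinsic subunit, was above Col-0 in every eds1-2 and w.tEDS1 library and below both in every R493A library.

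Other photosynthesis genes, from lists of related functions, were read beside the members. Of 24 chlorophyll synthesis genes, 22 were higher in eds1-2 than in Col-0, with a median log2 fold change of 0.48, and 1 passed the test. That gene, GSA2, an enzyme of the first steps of tetrapyrrole synthesis, read 49.6, 48.9 and 70.6 CPM in Col-0, 175, 155 and 153 in eds1-2 and 150.0, 161 and 146 in w.tEDS1. R493A held 155, 161 and 144 CPM, so GSA2 was above Col-0 in all 3 lines, with a log2 fold change of 1.51 (SE 0.146, adjusted p = 0.000377, edgeR) in eds1-2. It lies 0.291 Mb from EDS1 on chromosome 3. The 13 genes of electron transport and ATP synthase were all higher in eds1-2, with a median of 0.31 and none called.

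All 20 genes of photosystem assembly and protection were higher in eds1-2, with a median of 0.39, and 3 passed. STN8, the kinase of photosystem II core proteins, rose by 0.56 on the log2 scale (SE 0.110, adjusted p = 0.0335, edgeR). CPSRP54, part of the particle that carries antenna proteins to the thylakoid, rose by 0.66 on the log2 scale (SE 0.140, adjusted p = 0.0408, edgeR). Y3IP1, a photosystem I assembly factor, rose by 0.52 on the log2 scale (SE 0.0955, adjusted p = 0.0254, edgeR), and it was also called in w.tEDS1 and R493A against Col-0, where the call held in 9 and 5 of 24 alternatives. Of 20 tested regulators of photosynthesis genes, SIG2 and SIG6, sigma factors of the plastid RNA polymerase, passed in eds1-2 and in w.tEDS1 against Col-0. SIG2 read 53.9, 57.7 and 57.3 CPM in Col-0, 82.7, 75.6 and 77.0 in eds1-2, 80.6, 82.0 and 84.5 in w.tEDS1 and 68.0, 64.7 and 65.7 in R493A. SIG2 was also called in the difference between the EDS1 comparisons, at -0.79 (SE 0.120, adjusted p = 0.0295, edgeR). PHYB, the red light receptor, was called in R493A against Col-0, at 0.47 (SE 0.104, adjusted p = 0.0499, edgeR). These calls depended on the setting: of 24 alternatives, the call in eds1-2 against Col-0 held in 22 for GSA2, 16 for SIG6, 13 for SIG2, 12 for Y3IP1, 8 for STN8 and 6 for CPSRP54. PHYB in R493A held in 5, and in the difference SIG2 held in 6 of 23 and GSA2, at -1.499 (SE 0.203, adjusted p = 0.0167, edgeR), in 9 of 23. With lane in the model GSA2 in eds1-2 was at 1.15 (adjusted p = 0.124, edgeR). None of the 11 clock genes was called in any comparison, with a median of 0.15 in eds1-2 against Col-0.

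Markers of cell types were summed in the same libraries. The 5 mesophyll markers summed, in CPM, to 12243, 13188 and 16912 in the Col-0 libraries, 20508, 19062 and 15935 in eds1-2, 16133, 19335 and 17099.5 in w.tEDS1 and 17714, 15914 and 14726 in R493A. All 5 were higher in eds1-2 than in Col-0 with a median of 0.40, and none was called. The 6 guard cell markers were also all higher in eds1-2, with a median of 0.63, none called and sums of 60.9 to 132 CPM over the libraries. The 4 epidermis markers gave a median of 0.07 and sums of 320.3 to 648 CPM, with PDF1 the only one at 0 in a library, and the 3 phloem markers gave 0.11 and sums of 515 to 612 CPM. Markers of dividing cells summed to 1.13 to 3.65 CPM. Their part in the members' differences was not tested.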

How the data were processed

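The authors deposited raw gene counts for 12 libraries. Reads were processed with TopHat2, HTSeq and limma on TAIR10, per the submitters' processing notes; versions, read length and strand setting are not given in the sources used here. The column's 5 summary entries (9.69% to 22.9% of it) were left out. Counts were analysed with edgeR 4.0.16 in R 4.3.3: filterByExpr, TMM scaling, 1 quasi-likelihood fit of genotype over all 12 libraries, 6 pairwise comparisons and 1 difference of differences, with Benjamini-Hochberg adjustment over 18770 genes and a threshold of 0.05. The scripts were tested on simulated data. Alternatives used limma 3.58.1 and DESeq2 1.42.0. Fold changes use edgeR's default prior count. Intervals are 95%. Each replicate pooled 4 plants, so p-values measure spread between pools.

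Members and lists were chosen with earlier results of these data known. Named members were, in each class, the largest and smallest change in eds1-2 against Col-0 and in R493A against w.tEDS1 and the highest level per kb; LHCB2.1, LHCB3, LHCB4.2 and genes in counts were added after their values were seen. Sequence, lengths and positions are from RefSeq TAIR10.1 (31912 of 32678 identifiers matched). Protein sequences were not used.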

Additional observations from a re-analysis of the deposited data

How the results depend on the processing

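No member was called in any comparison in edgeR's fit as reported, nor under DESeq2 size factors, scaling factors without the members, no filter, limma-voom, lane as a covariate, the main run alone, lane 7 alone, Col-0 replicates 1 and 2 left out, and each comparison's 6 libraries alone. DESeq2's own test called 6 members in eds1-2 and 9 in w.tEDS1 against Col-0 and 3 in the difference between the EDS1 comparisons. It called 10%, 9.51% and 2.87% of all genes there. Sequencing run as a covariate called 1 in w.tEDS1 against Col-0, beside 3.04% of all genes. Leaving out 1 library at a time gave 0 to 7, 0 to 11 and 0 to 1 members in the 3 comparisons named for DESeq2 and 0 in the others. The counts above 0 came without Col-0 replicate 3, when 17.6%, 14.2% and 2.32% of all genes were called.

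The median log2 fold change of the members was 0.0681 in eds1-2 and -0.10 in R493A against Col-0 with lane as a covariate, and -0.0212, -0.0457 and, in the difference between the EDS1 comparisons, -0.17 within lane 7, where Col-0, eds1-2 and R493A have 1 library each, assumed to vary like w.tEDS1. Without 1 library at a time the medians ran from 0.20 to 0.43 (eds1-2), 0.23 to 0.46 (w.tEDS1) and 0.05 to 0.31 (R493A) against Col-0, from -0.05 to 0.07 for w.tEDS1 against eds1-2, from -0.20 to -0.13 for R493A against w.tEDS1, from -0.21 to -0.09 for R493A against eds1-2, and from -0.59 to -0.37 for the difference. Summed levels ran from 69018 to 82318 CPM in Col-0, 92977 to 96309.9 in w.tEDS1, 88493 to 97049 in eds1-2 and 80559 to 84237 in R493A. The fit with lane as a covariate left 4 residual degrees of freedom, and its comparisons with Col-0 rest on Col-0 replicate 3 alone. The cause of the shifts between settings was not tested.

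Of 936 values for single named members, 34 changed sign. Sequencing lane as a covariate gave for eds1-2 against Col-0 PSAE2 -0.0988, PSAK -0.14, PSAO -0.13 and PSBR -0.0535, for w.tEDS1 against Col-0 PSAE2 -0.0450 and PSAK -0.0761, and for R493A against w.tEDS1 LHCB4.3 0.18 and PSBR -0.0688. Lane 7 alone gave for eds1-2 against Col-0 LHCA1 -0.0152, LHCA5 -0.00189, PSAE2 -0.20, PSAK -0.25, PSAO -0.23 and PSBR -0.15, for w.tEDS1 against Col-0 PSAE2 -0.0446 and PSAK -0.0760, and for R493A against w.tEDS1 LHCB4.3 0.20. Col-0 replicates 1 and 2 left out gave for eds1-2 against Col-0 PSAE2 -0.0448, PSAK -0.0616 and PSAO -0.0448; for w.tEDS1 against Col-0 PSAE2 -0.0384 and PSAK -0.0696. Main sequencing run alone gave for R493A against w.tEDS1 LHCB4.3 0.0234. Leaving out 1 library at a time gave for eds1-2 against Col-0 PSAE2 -0.0214 to 0.15, PSBR -0.0586 to 0.16, for w.tEDS1 against Col-0 LHCB4.3 -0.33 to 0.26, PSAE2 -0.0146 to 0.16, PSBR -0.00270 to 0.16, and for R493A against w.tEDS1 LHCB4.3 -0.19 to 0.0167, PSAK -0.0424 to 0.00197, PSBR -0.00837 to 0.0571, where Col-0 replicate 1 turned the sign in the first and the second of these comparisons eds1-2 replicate 3 that of PSBR in the first, and w.tEDS1 replicate 2 and R493A replicates 2 and 3 those in the third.

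Genes called in the whole table, with the range over the alternatives in parentheses, were 383 (10 to 3338) for eds1-2, 204 (19 to 2701) for w.tEDS1 and 333 (15 to 2367) for R493A against Col-0, 14 (0 to 84) for w.tEDS1 against eds1-2, 42 (2 to 155) for R493A against w.tEDS1, 7 (1 to 31) for R493A against eds1-2 and 30 (1 to 527) for the difference. Replicate numbers did not pair the libraries: deviations of same-numbered libraries correlated above 0.1 in 4 of 18 pairs (-0.51 to 0.38). With the replicate block 0 members were called in every comparison, the median in eds1-2 against Col-0 was 0.32, and 132 genes of the whole table were called there. Dropping 1 Col-0 library, chosen after seeing the data, could only keep or raise counts of members above Col-0 without overlap. Without replicates 1, 2 and 3 in turn they were 12, 16 and 21 in eds1-2, beside 13%, 13.6% and 23.1% of all genes. In w.tEDS1 they were 22, 25 and 31, beside 15.3%, 15.4% and 24.5%. In R493A they were 4, 9 and 20, beside 12.4%, 13.4% and 24.2%. The genes of the other lists that passed the test kept their direction in every alternative. Depth limits little here, since counting error is 3.69% at the lowest member count, while 3 libraries a group and the spread in Col-0 limit the precision.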

Other observations

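Plastid-encoded photosynthesis transcripts, which encode the partners of the nuclear members in the same complexes, were read in the same libraries. All 12 of those listed were higher in R493A than in each other genotype, with median log2 differences of 0.52 against Col-0, 0.63 against w.tEDS1 and 0.54 against eds1-2, and none passed the adjusted threshold in edgeR. Their sum, in CPM, was 1212, 1168 and 1936 in the Col-0 libraries, 1140.0, 1409 and 1447 in eds1-2, 1218, 1816 and 836 in w.tEDS1 and 1991, 3161 and 1365 in R493A, so the ranges overlapped and R493A replicate 2 was the highest library. The libraries were made from poly(A) RNA, and R493A replicate 2 also had the largest share of reads without a unique place, 19.6% of its column against 7.28% to 14.3% in the others. R493A replicate 2 shared its sequencing run with eds1-2 replicate 1 only.

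Among the lists read beside the members, R493A was below w.tEDS1 for 20 of 24 chlorophyll synthesis genes, with a median of -0.22, for 11 of 13 electron transport and ATP synthase genes, with -0.07, and for 19 of 20 assembly and protection genes, with -0.13, and no gene of these 3 lists passed in that comparison. Of 5 further nuclear antenna and photosystem genes, LHCA4 lies 0.260 Mb and PSBO2 1.13 Mb from EDS1, and all 5 were higher in eds1-2 than in Col-0, with a median of 0.27 and none called. The 5 defence markers summed, in CPM, to 424, 1342 and 189 in the Col-0 libraries, 132, 169 and 252 in eds1-2, 418, 480.2 and 344 in w.tEDS1 and 239, 197 and 211 in R493A. In eds1-2 against Col-0, the calls of lower EDS1, PAD4 and ICS1 held in 22, 6 and 6 of 24 alternatives.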
